A study of Mus musculus with 35 samples.

Results

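Splicing factors and nuclear RNA-binding proteins were followed in mouse bone marrow stem cells and T lymphocytes. The group comprised 52 genes, of 8251 genes that had a probe set of their own on the Affymetrix MG-U74Av2 array. Members were chosen by symbol alone: the Snrp, Sf3a, Sf3b, Srsf, Hnrnp, numbered Lsm (without Lsm7) and U2af families, and Sfpq. Where a gene had several probe sets, as 15 of these genes did, the probe set with the highest mean level over all 35 arrays stood for it. Probe sets that the array annotation ties to several genes were not used, so some family members are absent. By role the group held 8 Snrp genes (1 of them the pseudogene Snrp1c-ps2), 8 SF3A and SF3B genes, 3 U2AF genes, 7 Lsm genes, 9 SR protein genes, 16 hnRNP genes and Sfpq.

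Introns are removed by the spliceosome, which is built from small nuclear ribonucleoproteins (snRNPs), each an RNA wrapped by Sm or Lsm proteins and by proteins particular to it. U2AF binds the end of the intron and recruits the U2 snRNP, whose SF3A and SF3B proteins hold it at the branch site. SR proteins (Srsf) bind exons and mostly favour their inclusion, while hnRNP proteins coat nascent RNA and often oppose SR proteins, and the levels of both families shape alternative splicing in blood cells as elsewhere. Lsm14a and Lsm14b are Lsm proteins of cytoplasmic mRNP granules and not of the spliceosome.

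All cells came from marrow of C57Bl/6 CD45.1 mice aged 7 to 9 weeks, and marrow of 1 mouse was used per experiment. The labels give male animals for every group other than the upper side population, for which they give no sex. Side population (SP) cells, named for their efflux of a Hoechst dye, were Sca-1 positive and Gr-1 negative and were sorted from the lower part (LSP) or the upper part (USP) of the SP tail. CD8 cells were CD3 and CD8 positive T lymphocytes. For each of these populations there were 3 pools, and each pool combined 4 amplifications of 10 cells and was hybridised to 2 arrays, which were averaged, so that n = 6 SP and n = 3 CD8 pools. In a second experiment, 12 single SP cells from the tip of the tail, named A to L, were amplified and hybridised singly, together with 5 single-cell equivalents (SCE, named A to E), aliquots of 1 lysate of 40 SP cells. SCE share their starting RNA, so they differ by technical error, whereas single cells differ by technical error and by biology. As in the paper's model, technical error is taken to be of the same size in both, which was not tested. Levels are log2 intensities. In ten-cell arrays, values under log2 7 were set to 7, called the floor here, and in single-cell arrays a gene was counted as detected above log2 9.

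The sorted populations carried the markers of their labels: all 7 T-cell markers on the array were above the floor in CD8 pools and 5 of 7 were at the floor in every SP pool, with a summed level of 73.3 to 75.3 in CD8 against 49.0 to 50.9 in LSP and 49.0 in USP pools. All 6 stem cell markers on the array were above the floor in SP pools and none in CD8 pools. Other lineages moved with the comparison too: granulocyte and monocyte markers summed to 62.4 to 75.9 in SP and 56.0 to 59.0 in CD8 pools (floor 56.0; Mpo and Elane at the floor throughout), and B-cell markers to 28.0 to 33.1 in SP and 31.4 to 36.9 in CD8 pools (floor 28.0; 3 of 4 above it in CD8, Blnk at the floor throughout). Erythroid markers overlapped, at 28.2 to 32.3 in SP and 28.0 to 33.2 in CD8 pools. The part of these cells in the results was not tested. Negative intensities were present on 9 of 12 SP arrays and on no CD8 array, so the kind of deposited value moved with the population in part. In these bulk pools, fewer cells that express a gene and less RNA per cell cannot be told apart.

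Promoters of 5 members on which the results turn are given first, 250 bases before to 50 bases after the RefSeq start, build GRCm38.p6, 5′ to 3′ on the gene's strand. Snrpe (chr1:133610231-133610530 on the minus strand) and Snrpg (chr6:86371290-86371589 on the plus strand) were high in every single cell. Srsf2 (chr11:116853045-116853344 on the minus strand) and Srsf6 (chr2:162931258-162931557 on the plus strand) were high in most cells and far lower in a few. Hnrnpa2b1 (chr6:51469845-51470144 on the minus strand, the first of 2 starts listed) parted SP from CD8 pools. Capitals mark matches, on either strand, to 5 motifs: the TATA box (TATAAA), the CCAAT box (CCAAT), the core of ETS factor sites (CCGGAA), the cyclic AMP response element (TGACGTCA) and the NRF1 core (GCATGCGC).

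Snrpe: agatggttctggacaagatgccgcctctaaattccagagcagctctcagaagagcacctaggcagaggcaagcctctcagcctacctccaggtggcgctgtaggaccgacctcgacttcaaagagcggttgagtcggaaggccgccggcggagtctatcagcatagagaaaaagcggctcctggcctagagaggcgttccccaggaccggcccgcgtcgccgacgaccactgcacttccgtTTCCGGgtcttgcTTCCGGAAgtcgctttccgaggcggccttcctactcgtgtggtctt

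Snrpg: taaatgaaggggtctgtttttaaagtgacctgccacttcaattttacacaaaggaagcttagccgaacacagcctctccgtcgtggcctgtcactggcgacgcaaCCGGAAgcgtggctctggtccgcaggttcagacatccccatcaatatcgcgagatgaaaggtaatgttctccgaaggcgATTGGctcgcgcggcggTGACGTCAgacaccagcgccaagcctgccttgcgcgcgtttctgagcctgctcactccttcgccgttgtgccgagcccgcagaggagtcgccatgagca

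Srsf2: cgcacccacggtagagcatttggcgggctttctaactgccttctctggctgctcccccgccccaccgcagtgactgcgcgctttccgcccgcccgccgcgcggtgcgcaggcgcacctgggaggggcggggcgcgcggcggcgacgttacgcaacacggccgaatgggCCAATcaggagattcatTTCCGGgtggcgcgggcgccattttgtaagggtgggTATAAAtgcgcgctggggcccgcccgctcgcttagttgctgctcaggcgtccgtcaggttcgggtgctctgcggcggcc

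Srsf6: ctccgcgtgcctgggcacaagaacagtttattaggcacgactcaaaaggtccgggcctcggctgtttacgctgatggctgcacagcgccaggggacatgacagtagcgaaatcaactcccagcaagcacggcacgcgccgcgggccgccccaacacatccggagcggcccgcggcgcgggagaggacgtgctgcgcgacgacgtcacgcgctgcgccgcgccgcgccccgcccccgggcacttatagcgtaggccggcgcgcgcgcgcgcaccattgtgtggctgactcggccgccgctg

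Hnrnpa2b1: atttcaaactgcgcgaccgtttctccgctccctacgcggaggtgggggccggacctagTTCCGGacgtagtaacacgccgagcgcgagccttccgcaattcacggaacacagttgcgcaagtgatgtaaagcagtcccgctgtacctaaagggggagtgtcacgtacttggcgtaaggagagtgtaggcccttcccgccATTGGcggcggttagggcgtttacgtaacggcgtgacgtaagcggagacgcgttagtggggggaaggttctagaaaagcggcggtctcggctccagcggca

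Snrpe holds 3 ETS core matches, of which the last 2 overlap as a palindrome at bases 5 and 7 after the start, and no other of the motifs. Snrpg holds an ETS core, a CCAAT box and the response element. Srsf2 has the TATA box, 29 bases before its start, together with a CCAAT box and an ETS core, while Srsf6 held no match to any of the 5. Among the 44 members with a promoter in the table, 21 (47.7%) held an ETS core, against 24.6% of 6573 array genes and 15.2% of all 27025 promoters of the same length. The CCAAT box was in 21 of 44 (47.7%, against 38.3% of array genes), the TATA box in 5 (11.4% against 10.4%), the NRF1 core in 3 (6.82% against 4.76%) and the response element in Snrpg only (2.27% against 2.88%). Median GC content was 60.3% in members and 60.0% in array genes. These matches describe letters in a window and show no binding.

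To ask whether splicing factors differed between stem cells and CD8 T lymphocytes, the mean of LSP and USP was compared with CD8. Of the 52 members, 48 exceeded the floor on 1 or more of the ten-cell arrays and were tested; Hnrnph2, Hnrnpk, Lsm1 and Srsf9 were at the floor on all 18 arrays. Hnrnpa2b1 and Hnrnpul2 were higher in SP than in CD8 pools at an adjusted p under 0.05 (limma, Benjamini-Hochberg over 6823 probe sets), and no member was lower. That is 4.17% of tested members higher, against 2.83% of all probe sets tested, and 0% lower, against 3.0%, so the shares were near the background. The median difference was 0.26 on the log2 scale in tested members and 0.04 in all probe sets tested, and 29 of 48 differences were positive (60.4%, against 58.6% of all).

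Hnrnpa2b1 encodes hnRNP A2/B1, which binds nascent RNA and takes part in splicing and RNA transport. Its level was 9.92, 10.49 and 10.45 in LSP pools A, B and M, 10.25, 10.49 and 10.82 in USP pools N, O and Z, and 7.0, 7.16 and 7.0 in CD8 pools B, C and D. All 6 SP pools thus lay far above the CD8 pools, which were at the floor on 5 of 6 arrays. Mean levels were 10.40 for the SP pools (SD 0.30, n = 6) and 7.05 for the CD8 pools (SD 0.09, n = 3), a difference of 3.35 ± 0.18 (SE; limma adjusted p = 5.47e-05) or 10.2-fold on this floored scale, and the size depends on the floor. A second Hnrnpa2b1 probe set read lower and gave 8.21 in SP and 7.25 in CD8, a difference of 0.96 that missed the threshold (limma adjusted p = 0.260).

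Hnrnpul2, an hnRNP U-like protein of the nucleus, was at 10.45, 10.80 and 10.30 in LSP, 10.64, 11.18 and 11.01 in USP and 9.27, 9.98 and 8.89 in CD8 pools. The lowest SP pool was above the highest CD8 pool. The difference of 1.35 ± 0.26 (SE; limma adjusted p = 0.0316; 2.55-fold) was close to the threshold and lost its call when any of the 3 LSP pools, USP O, USP Z, CD8 B or CD8 D was left out (limma adjusted p of 0.0508 to 0.119, difference 1.10 to 1.40). Its other probe set gave 8.52 against 7.58 (difference 0.94, limma adjusted p = 0.705).

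LSP and USP were also each set against the same CD8 pools. Hnrnpa2b1 was 3.23 ± 0.21 (SE) higher in LSP and 3.46 ± 0.21 higher in USP, and was called in both. Hnrnpul2 was 1.13 ± 0.30 higher in LSP, which missed the threshold (limma adjusted p = 0.109), and 1.56 ± 0.30 higher in USP, which passed it (limma adjusted p = 0.0362). Background calls were 2.17% higher and 2.23% lower for LSP, and 2.21% and 2.14% for USP, and no member was called lower in either. The difference between the 2 comparisons is the LSP against USP test below.

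**Figure D1:**
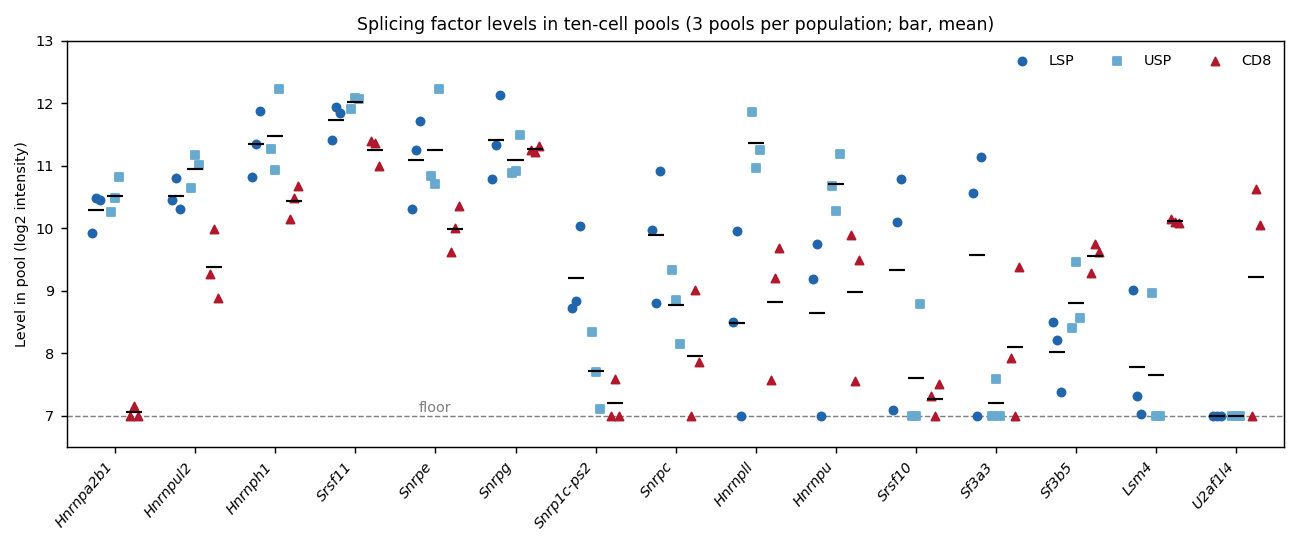
Level (log2 intensity) of 15 members in the 9 ten-cell pools, each point the mean of 2 arrays of a pool and each bar the mean of 3 pools; the dashed line is the floor. Hnrnpa2b1 lies at 9.92 to 10.82 in SP pools and at 7.0 to 7.16 in CD8 pools, while U2af1l4 is at the floor in all SP pools and in CD8 pool B.

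Without adjustment for the number of probe sets, 6 members were higher and 3 lower in SP at p under 0.05 (12.5% and 6.25% of those tested, background 9.13% and 9.32%). SP and CD8 pools did not overlap for 4 members higher in SP (Hnrnpa2b1, Hnrnpul2, Hnrnph1 and Srsf11; 8.33%, background 5.53%) and for Lsm4, which was lower (2.08%, background 5.77%). Srsf11, an SR-type protein, was at 11.42 to 12.08 in SP pools and 10.99 to 11.39 in CD8 pools. The difference was 0.63 ± 0.16 (SE, limma adjusted p = 0.0704). It was called under 1 of 21 alternatives, without LSP A (0.71, limma adjusted p = 0.0307), and the limma adjusted p reached 0.280 over the 21. Hnrnph1, which binds G-rich RNA, was at 10.82 to 12.23 in SP and 10.15 to 10.68 in CD8 pools, a difference of 0.98 ± 0.35 (SE; limma adjusted p = 0.184).

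Among SR proteins, 0 of 8 tested passed the test. Srsf2 and Srsf6 lay in overlapping ranges in both cell types: Srsf2 had means of 11.79 (SD 0.60) over the SP pools and 11.81 (SD 0.23) over the CD8 pools, and Srsf6 had means of 11.82 ± 0.72 and 12.20 ± 0.20. Srsf3 was at 9.21 to 10.88 in SP pools and 10.64 to 10.80 in CD8 pools (difference -0.56 ± 0.35 SE). Srsf10 spread widely within SP, from 7.0 to 10.79, against 7.0 to 7.51 in CD8 pools (difference 1.19, limma adjusted p = 0.533). Srsf1 was at the floor in every pool other than LSP M (8.99), and Srsf4 did not exceed 7.14 in any pool.

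Of the other 12 hnRNP genes tested, 9 differences were positive and 3 negative, none passing the test. Hnrnpc, a core hnRNP protein, gave -1.26 (limma adjusted p = 0.573), with CD8 pools at 9.68, 10.88 and 7.0. Hnrnpdl, Hnrnpm and Hnrnpd were read at levels between 9.26 and 12 in every pool. Sfpq, a paraspeckle and splicing protein, was all or none among SP pools on its chosen probe set. LSP B, LSP M and USP Z were at 10.17 to 10.69, LSP A and USP N were at the floor and USP O was at 7.32. Its difference of 1.38 ± 1.10 (SE; limma adjusted p = 0.582) was smaller than that spread. On arrays with positive values alone the Sfpq difference was 3.30 and called (limma adjusted p = 0.0346). Hnrnpul2 was not called there (limma adjusted p = 0.160). That setting kept LSP B and USP Z alone of the SP pools, both high for Sfpq. It dropped LSP M, and also LSP A, USP N and USP O, which were at or near the floor. The Sfpq probe set is of a class (f_at) that can bind related transcripts. Another gave 0.91 (limma adjusted p = 0.697) and a further one -0.62 (limma adjusted p = 0.520), with SP pools at the floor. The remaining Sfpq probe sets were at the floor in all pools.

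Among the 8 Snrp genes none passed the test. Snrpe, a protein of the Sm ring, was at 10.31, 11.24 and 11.71 in LSP, 10.83, 10.71 and 12.22 in USP and 9.62, 10.00 and 10.36 in CD8 pools. SP and CD8 pools overlapped by LSP A alone, and the difference was 1.18 ± 0.45 (SE; limma adjusted p = 0.215). Snrpg, of the same ring, did not follow it: CD8 pools lay at 11.22 to 11.31, inside the SP range of 10.78 to 12.12. The U1 protein gene Snrpc was at 8.14 to 10.92 in SP and 7.0 to 9.02 in CD8 pools (difference 1.38, limma adjusted p = 0.290), and its pseudogene Snrp1c-ps2 gave 1.26 (limma adjusted p = 0.136). Snrp1c-ps2 and Snrpe are read by probe sets of a class (f_at) that can bind related transcripts.

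Of the 8 SF3A and SF3B genes none passed. Sf3b1, the largest SF3B subunit, varied least on its chosen probe set, at 8.83 to 9.57 in SP and 9.09 to 9.34 in CD8 pools. A second Sf3b1 probe set had means of 9.28 in SP and 9.73 in CD8 pools (difference -0.45, limma adjusted p = 0.828). Sf3a1 had the largest difference (1.21, limma adjusted p = 0.674) with a wide spread, from 7.0 to 11.08 in SP and 7.0 to 10.72 in CD8 pools. Sf3b5 was lower in SP without adjustment, at 7.37 to 9.45 against 9.28 to 9.75 (difference -1.13 ± 0.33 SE, limma adjusted p = 0.113). Of the U2AF genes, U2af2, the large subunit, was at 9.76 to 10.57 in SP and 10.47 to 10.63 in CD8 pools, and U2af1, the small subunit, was near the floor. U2af1l4, a paralog of the small subunit, was at the floor in all 6 SP pools and at 7.0, 10.63 and 10.05 in CD8 pools B, C and D. Its difference of -2.22 ± 0.74 (SE) missed the threshold (limma adjusted p = 0.162). Without CD8 pool B, the CD8 pool at the floor, it was -3.34 and called (limma adjusted p = 0.000145), with no spread among the floored SP pools. Over all pools left out singly it was -3.34 to -1.52, with a limma adjusted p of up to 0.44. It was called under 3 of 20 alternatives.

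Lsm4, a protein of the U6 snRNP ring and of the ring that binds mRNA during decay, had the lowest difference of the 48. Its level was 9.0, 7.32 and 7.03 in LSP, 8.97, 7.0 and 7.0 in USP and 10.14, 10.10 and 10.08 in CD8 pools. Every CD8 pool was above every SP pool, and LSP A and USP N stood apart from the other 4 SP pools. The difference was -2.39 ± 0.59 (SE; limma adjusted p = 0.0724), and it passed the threshold without LSP A (-2.69, limma adjusted p = 0.0402) or without USP N (-2.71, limma adjusted p = 0.0319). It was called lower under 9 of 21 alternatives in all, with an adjusted p (limma) between 0.00391 and 0.215 over the 21. Lsm3, in both of those rings, was at 7.0 to 10.46 in SP and 8.79 to 9.57 in CD8 pools.

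**Figure D2:**
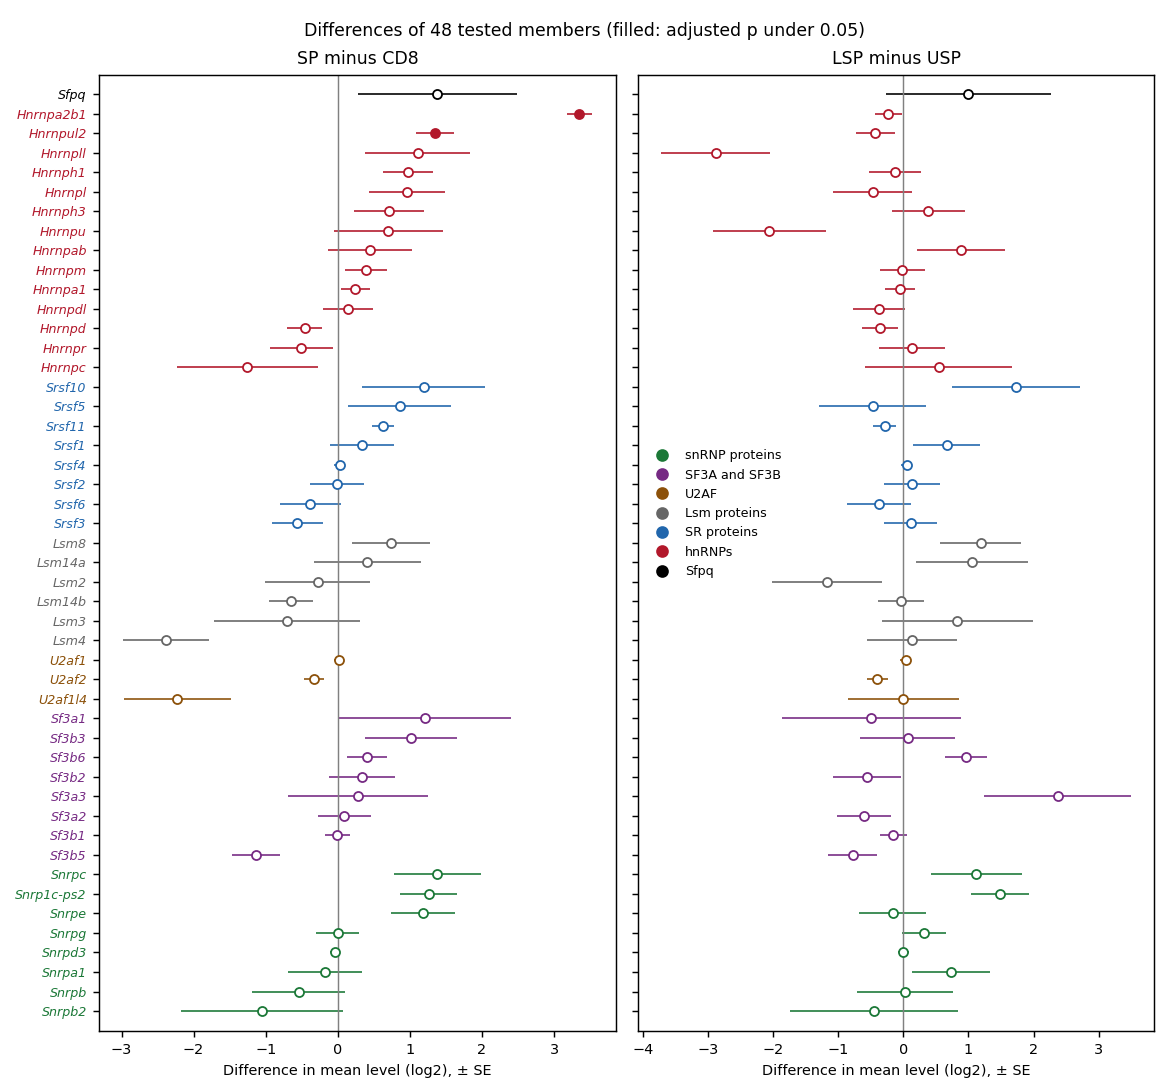
Difference in mean log2 level (x axis, ± SE from limma) for each of the 48 tested members, SP minus CD8 on the left and LSP minus USP on the right, coloured by role. Only Hnrnpa2b1 and Hnrnpul2 are filled, with differences of 3.35 and 1.35, and no point is filled for LSP minus USP.

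To ask whether splicing factors differed along the SP tail, LSP was compared with USP. No member passed the test in either direction (background 0.0293% higher and 0.0733% lower in LSP), and the methods' t-test with the same adjustment also gave 0. Without adjustment 2 members were higher in LSP and 3 lower (4.17% and 6.25% of those tested, background 3.18% and 2.81%), and the median difference was 0.00 in members and in all probe sets. LSP and USP pools did not overlap for Hnrnpll and Hnrnpu, which were lower in LSP (4.17%, background 2.89%), and for Snrp1c-ps2, which was higher (2.08%, background 3.09%).

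Hnrnpll, an hnRNP L-like protein known for regulating Ptprc (CD45) exons in lymphocytes, was at 8.49, 9.95 and 7.0 in LSP and 11.87, 10.97 and 11.25 in USP pools. USP pools lay together above a spread LSP group, with a difference of -2.88 ± 0.84 (SE; limma adjusted p = 0.568). Hnrnpu, a nuclear scaffold protein, had the same order, at 9.19, 9.75 and 7.0 in LSP against 10.67, 10.27 and 11.19 in USP (-2.06 ± 0.87 SE, limma adjusted p = 0.829). Other probe sets of Hnrnpu and Srsf10 were at or near the floor, with means of 7.0 in SP and in CD8 pools. LSP M was at the floor for Hnrnpll and, on its chosen probe set, for Hnrnpu. Sf3a3, an SF3A subunit, went the other way, at 10.57, 7.0 and 11.13 in LSP and 7.0, 7.59 and 7.0 in USP (2.37, limma adjusted p = 0.869; 0 on arrays with positive values alone), as did Srsf10 (1.73, limma adjusted p = 0.876) and Snrp1c-ps2 (1.49 ± 0.45 SE, limma adjusted p = 0.628). Sf3b6, which contacts the branch point, was at 10.71, 10.94 and 10.43 in LSP and 10.49, 9.37 and 9.31 in USP, with a difference of 0.97 (limma adjusted p = 0.708). It was called without USP N (1.35, limma adjusted p = 0.0472) and on arrays with positive values alone (1.61, limma adjusted p = 0.00311), where each SP population had a lone pool. Granulocyte and monocyte markers moved with the comparison: their summed level was 62.4 to 64.4 in LSP (4 of 8 above the floor) and 68.7 to 75.9 in USP (6 of 8), with Mpo and Elane at the floor in every pool, and erythroid markers were at 28.2 to 29.8 in LSP and 31.7 to 32.3 in USP. B-cell markers were at 28.0 to 30.1 in LSP and 28.4 to 33.1 in USP. Platelet markers did not exceed 14.5 in either (floor 14). The part of any of these in the differences was not tested.

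In single cells, 40 of 52 members were detected in at least 1 of 12 cells (76.9%, against 40.3% of 8251 genes taken by the same probe set rule). In all 12 cells only Snrpe and Snrpg were detected (3.85%, background 1.31%), and both were also detected in all 5 SCE (background 1.18%). The other detected members split into 23 found in 4 to 11 cells and 15 found in 1 to 3 cells (57.5% and 37.5% of the detected, background 36.0% and 60.7%). A cell had between 12 (cell L) and 24 (cell K) members above the level, and an SCE had 15 to 19. All cells came from 1 animal and all SCE from 1 lysate, so each group is a single sample and the values below are descriptions.

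**Figure D3:**
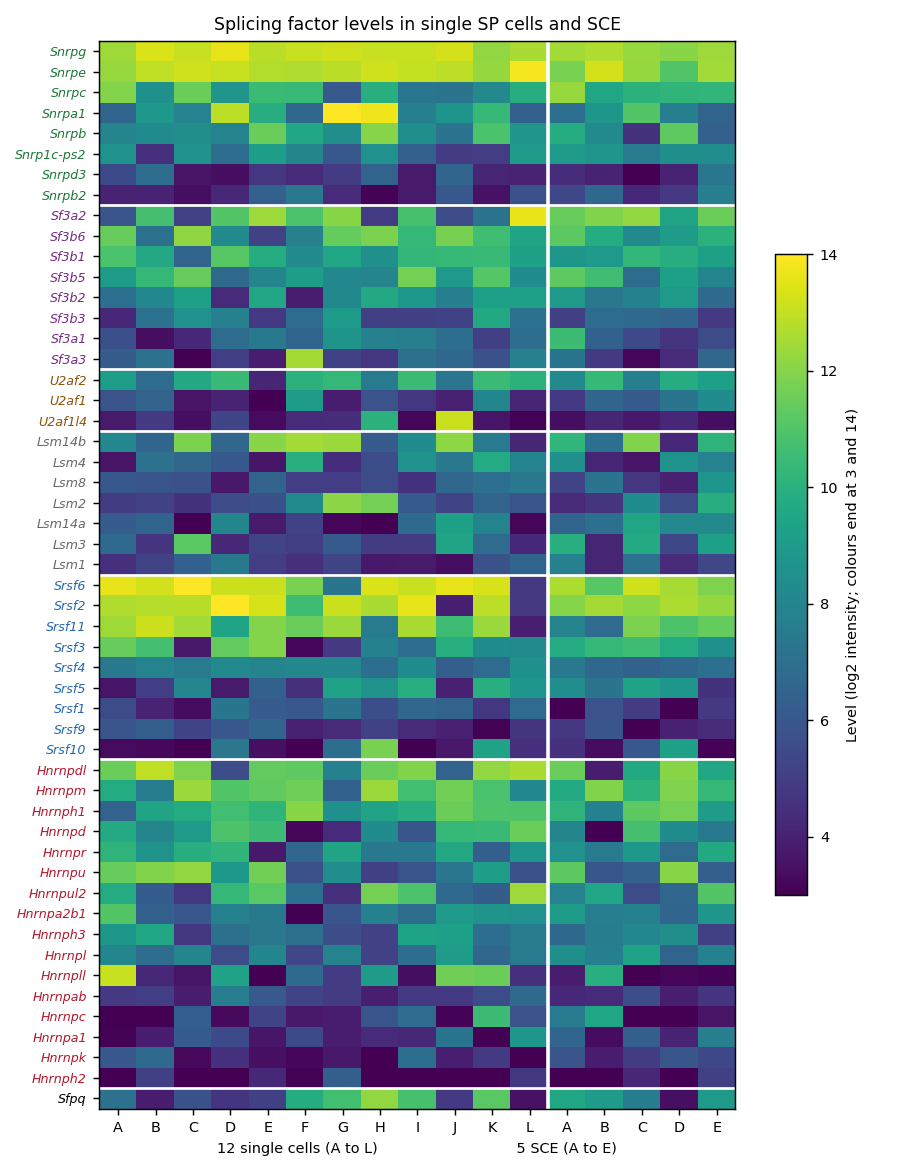
Level (log2 intensity, colour) of all 52 members in 12 single SP cells and 5 SCE, grouped by role and ordered within a role by the median over cells. Snrpg and Snrpe are bright in all 17 columns, at 11.02 to 13.87, and Srsf2 is dark in cells J and L alone.

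Snrpe and Snrpg, both of the Sm ring that all spliceosomal snRNPs other than U6 share, varied least. Snrpe had a lowest level of 12.25, a median of 12.93 and a highest of 13.87 in the cells, and was at 11.77, 13.30, 12.26, 11.02 and 12.46 in SCE A to E. Snrpg ran from 12.20 through a median of 13.09 to 13.63 in the cells, and was at 12.47, 12.69, 12.32, 12.05 and 12.39 in the SCE. No cell was low for either gene. The SD between cells was 0.43 and 0.41, against 0.84 and 0.23 between SCE, and against a median SD of 2.26 over the detected members. The share of variance between cells left after the technical part, fitted by maximum likelihood with a mean common to cells and SCE, was 0 for both, the only members under 0.05 among those detected in every cell (5% of 40, background 1.59%). With a mean for each group it remained 0 for Snrpe and was 0.715 for Snrpg, for which 9 of 12 cells lay above the highest SCE.

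Other Snrp genes were not as even between cells. Snrpb, which encodes the SmB proteins, had a median of 8.47 in cells and was detected in 4 of 12. Its SD was larger between SCE (2.64, levels 4.63 to 11.25) than between cells (1.53), and its share was 0. The Snrpb probe set is of reduced stringency (r_at), and the other one was above log2 9 in no cell and no SCE. Snrpa1, a U2 protein, reached 14.32 in cell G, 13.73 in H and 12.91 in D, with the other 9 cells between 6.38 and 10.35. Snrpa1 also spread between SCE, from 6.54 to 11.07 (SD 1.80, against 2.82 between cells, share 0.614). Snrpd3 and Snrpb2 were detected in no cell and no SCE.

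Among the SR proteins, Srsf2 (SC35) was at 3.96 in cell J and 4.84 in cell L, at 10.58 in cell F and between 12.61 and 14 in the other 9 cells. Its level in SCE A to E was 11.98, 12.51, 12.15, 12.63 and 12.25. The low cells were far below anything seen among SCE, the SD was 3.39 between cells and 0.26 between SCE, and the share of variance was 0.995. It was the one member with a share over 0.95 and at least 4 detected cells (2.50% of 40, background 2.89%). A second Srsf2 probe set read lower and was above log2 9 in 1 cell and no SCE, so the pattern rests on a single probe set, of a class (s_at) that can match several transcripts.

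Srsf6, another SR protein, was at 7.22 in cell G and 4.81 in cell L and between 11.78 and 14.57 in the other 10 cells. In SCE A to E it was at 12.65, 11.15, 13.20, 12.58 and 11.86, so the low cells again lay below every SCE. Its share of variance was 0.937, and 0.854 without cell L. Srsf3 spread more evenly, from 3.20 in cell F through a median of 8.31 to 11.95 in cell E, with SCE at 9.77, 10.33, 10.58, 9.77 and 8.50. Its share of 0.948 was just under the limit. The Srsf3 probe set is of the f_at class, and the other Srsf3 probe set was above log2 9 in no cell and no SCE. Srsf11 was at 3.92 in cell L and 7.54 in cell H and between 9.44 and 13.16 in the others, but SCE A and B were also low, at 7.94 and 6.85, and its share was 0.354, or 0 without cell L and 0.649 without SCE B.

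Cell L was therefore low for Srsf2, Srsf6 and Srsf11 at the same time, but not for the other SR genes. Srsf1 (6.84), Srsf4 (8.51), Srsf5 (8.77) and Srsf10 (4.54) were above their medians over cells in it. Srsf3 (8.27) and Srsf9 (4.67) were slightly below theirs (8.31 and 4.90). Cell L had the fewest members above log2 9 (12). It had 1244 probe sets above that level, low in the range of 1194 to 1489 over the 12 cells. The part of recovery in these values was not tested. It had the highest levels of any cell for Snrpe (13.87), Sf3a2 (13.67) and Hnrnpul2 (12.41). Cells J, G and H were each low for only 1 of Srsf2, Srsf6 and Srsf11. Srsf1, Srsf4 and Srsf9 were detected in no cell.

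**Figure D4:**
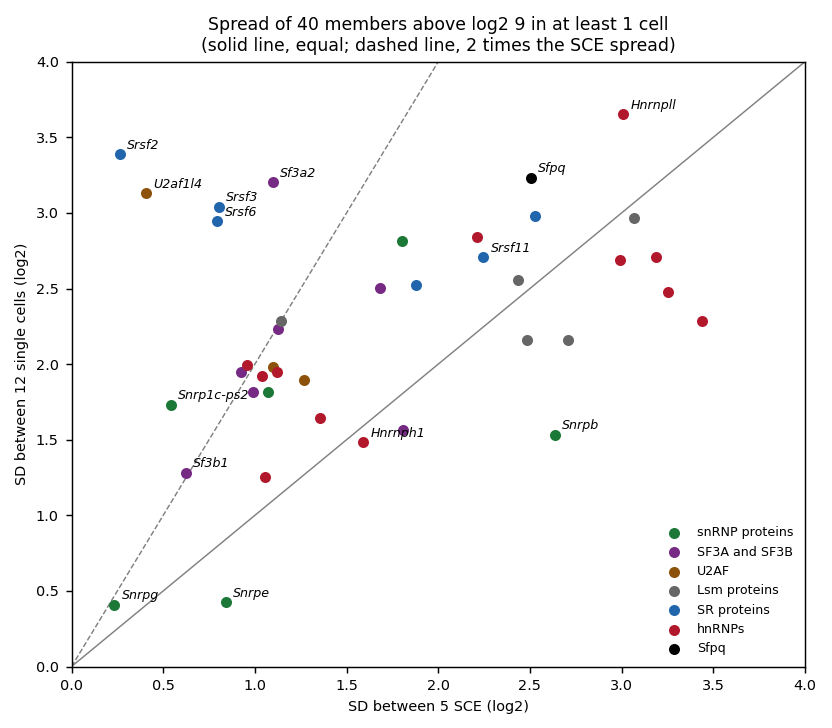
SD of the log2 level between 12 single cells (y axis) against the SD between 5 SCE (x axis) for the 40 members detected in at least 1 cell, coloured by role. Srsf2 lies at 3.39 against 0.26 and Snrpe, below the line of equality, at 0.43 against 0.84.

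Over the 40 detected members the SD was larger between cells than between SCE for 29 (72.5%, background 68.8%), was at least 2 times larger for 9 (22.5%, background 22.5%), and the share of variance was at least 0.5 for 18 (45%, background 42.0%). The members as a group thus resembled the array in their spread. Among the U2 factors, Sf3a2 ran from 4.91 to 13.67 in cells and was at 11.45, 11.93, 12.21, 9.42 and 11.52 in SCE, with a share of 0.911. Its probe set is also of the f_at class, and the other Sf3a2 probe set was above log2 9 in no cell and 1 SCE. Sf3b1 was steadier, from 6.55 through 9.72 to 11.13, with SCE at 8.81, 8.92, 10.27, 9.86 and 9.27. That probe set was above log2 9 in 9 cells and 3 SCE, and the other Sf3b1 probe set in 4 cells and 1 SCE. U2af1l4 was at 13.12 in cell J and 10.06 in cell H and at 3.05 to 5.30 in the other 10, with all SCE at 3.39 to 4.22. It was at the floor in every SP pool, unlike in these 2 cells. Cell J was low for Srsf2, but cell H was not (12.61), and cell L, also low for Srsf2, had the lowest U2af1l4 level (3.05). Sf3a3 was detected in cell F alone, at 12.54.

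Among hnRNP genes, Hnrnph1 was the steadiest that was detected in at least 4 cells, with a lowest level of 6.46, a median of 10.02 and a highest of 12.04 in cells and SCE at 10.16, 7.82, 11.22, 11.72 and 9.06. Its spread between SCE (SD 1.59) was as wide as that between cells (1.48). Hnrnpll had the largest SD between cells of the detected members (3.65, against 3.01 between SCE), and ran from 3.04 to 13.10 with a median of 5.84. It was above log2 9 in cells A, D, H, J and K. SCE B, at 9.94, stood apart from the other 4 at 2.91 to 3.85, and the share of 0.245 became 0.995 without it. Sfpq ran from 3.54 to 12.20 with SCE at 9.58, 9.10, 7.67, 3.43 and 8.90 (share 0.474, or 0.952 without SCE D). Another Sfpq probe set was above log2 9 in 3 cells and 2 SCE, and the remaining ones in none. Hnrnpa2b1, called in SP pools, was detected in cell A alone at 11.06, with a median over cells of 7.65 and SCE at 9.03, 7.70, 7.82, 6.60 and 8.72.

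Among splicing genes outside these families, 3 were called higher and 1 lower in SP than in CD8 pools, of 87 tested in 5 lists, with 2.83% higher and 3.0% lower as the background. Of 34 tested genes of the spliceosome core none was higher in SP than in CD8 pools and 1 was lower, the branch point binding gene Sf1. It was at 7.64 ± 0.36 (SD) in SP and 9.35 ± 0.31 in CD8 pools (limma adjusted p = 0.00659). Its probe set, of reduced stringency (r_at), was above log2 9 in all 12 single SP cells and all 5 SCE, unlike in the SP pools. The largest difference of this list was in Prpf4b, a kinase of the tri-snRNP (2.19, limma adjusted p = 0.239). Of 36 tested splicing regulators 1 was higher, Tardbp (TDP-43; 1.38 ± 0.24 SE, limma adjusted p = 0.0196). Of 7 SR protein kinases 1 was higher, Clk1, at 11.02 ± 0.55 (SD, n = 6) against 8.92 ± 0.31 (SD, n = 3; limma adjusted p = 0.0167). Of 4 genes of the exon junction complex and mRNA export 1 was higher, the export adaptor gene Alyref, at 8.43 ± 0.57 in SP and at the floor in all CD8 pools (at least 2.70-fold; limma adjusted p = 0.0130). Of 6 snRNP assembly genes none was called, and Clns1a had the largest difference (-1.39, limma adjusted p = 0.363). Between LSP and USP none of these 87 genes was called. The largest differences by list were in Cdc5l (1.68), Pspc1 (1.57), Srpk1 (-1.54), Rnps1 (-1.37) and Clns1a (1.12), with limma adjusted p of 0.876 in each.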

How the data were processed

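Amplified RNA of 9 ten-cell pools (18 arrays), 12 single cells and 5 SCE was hybridised to MG-U74Av2 arrays after limited reverse transcription of mRNA 3′ ends, tailing and PCR. The deposited intensities are on a linear scale. The authors describe RMA for their own analysis, but how the probes were summarised and scaled for these columns is not given in the sources used here, and 9 of 18 ten-cell arrays hold negative intensities while the others do not, so low values are not comparable between them. Gene symbols came from the platform annotation, and none changed against the RefSeq table.

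For ten-cell arrays, intensities under 128 were set to 128 (log2 7), log2 was taken and the 2 arrays of a pool were averaged. Probe sets above this floor on at least 1 array (6823) were fitted in limma 3.58.1 (R 4.3.3) with a mean per population, and p-values were adjusted by Benjamini-Hochberg at 0.05. These p-values measure the spread between pools, and marrow of a single mouse served each experiment, so that spread may be partly technical. A group set wholly to the floor has no spread of its own, so the p-values of such genes can be too small. Single-cell and SCE arrays were not floored, and detection was set at log2 9 (intensity 512). With 1 animal and 1 lysate, no test was made between single cells and SCE, and the share of variance between cells was estimated by maximum likelihood, imprecisely with 5 SCE. The number of arrays limits the precision. The model was tested on simulated data. Promoters and motif matches came from RefSeq GRCm38.p6, and 8 members without an entry were not searched. Python 3.11.15 with numpy 2.4.6, scipy 1.17.1, pandas 2.3.3 and matplotlib 3.10.9 was used.

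Members, gene lists, floor and detection level were chosen with earlier results of these data known. Named genes were those called, the 10 largest absolute differences between SP and CD8 and the 5 largest between LSP and USP, the 5 highest and 5 lowest SD between cells among members detected in at least 4 cells, those detected on all single-cell and SCE arrays, and those with a share over 0.95. In the other splicing lists, the genes called and the largest difference were named. Other members were named after their values were seen. Alternatives covered the floor, normalization, filters, array duplicates, the kind of deposited value, the test, the probe set and leaving out each pool or cell.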

Additional observations from a re-analysis of the deposited data

Results flagged for a closer look

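Among 21 named genes, 3 had a stray array among the 5 SCE, judged by the gap to the nearest SCE over the whole range (critical value 0.71); chance flags about 1 in 20 such groups. Snrpc was at 12.31 in SCE A and at 9.50 to 10.26 in the others (gap over range 0.730). Hnrnpll was at 9.94 in SCE B and at 2.91 to 3.85 in the others (0.866). Sf3a2 was at 9.42 in SCE D and at 11.45 to 12.21 in the others (0.727). No member had all LSP pools on one side of the CD8 pools and all USP pools on the other.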

How the results depend on the processing

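Of the differences of named genes recomputed under the alternatives, 409 kept their direction and their side of the threshold, 17 came to pass it, 13 no longer passed it, all of them Hnrnpul2, 1 moved to 0 (Sf3a3, LSP against USP, arrays with positive values alone), and none reversed. Of the shares of variance of named genes, 243 moved by less than 0.1 and 17 by more. Hnrnpa2b1 was called under every alternative. For SP against CD8, 2 members were higher, and 1 was with centring on probe sets above the floor on all arrays, no filter, a mean level above log2 8, the pool as a random block or the methods' t-test with adjustment; 5 were by that test unadjusted, 6 by limma unadjusted, and 1 to 2 without each pool. No member was lower, but 1 was with a floor of log2 8, a mean level above log2 8 or only the populations compared, 2 with quantile normalization, the random block or arrays with positive values alone, 3 by either test unadjusted, and 0 to 1 without each pool. For LSP against USP, 0 were called each way; arrays with positive values alone gave 3 higher and 1 lower, with a lone pool per SP population assumed to vary like CD8, and 690 and 506 probe sets called in all. Unadjusted, limma gave 2 higher and 3 lower and the methods' t-test 0 and 1, and leaving out a pool gave 0 to 1 higher and 0 lower. For LSP against CD8, 1 was higher (6 unadjusted, 1 to 2 without each pool) and 0 lower (1 with a floor of log2 8 or quantile normalization, 2 with the random block, 4 unadjusted, 0 to 1 without each pool). For USP against CD8, 2 were higher (1 with centring, no filter, a mean level above log2 8, the random block or an eBayes intensity trend, 6 unadjusted, 1 to 2 without each pool) and 0 lower (1 with a floor of log2 8 or quantile normalization, 2 with the random block, 2 unadjusted, 0 to 1 without each pool). The cause was not tested.

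The array number in the labels marks duplicate arrays of a pool: same-pool arrays correlated at 0.771 to 0.959 after removal of group means, and arrays of the same number in different populations at a median of -0.000507. With the array number as a replicate block, 2 members were lower in SP than in CD8, Lsm4 (limma adjusted p = 0.00564; 0.00723 with the random block alone) and U2af1l4 (limma adjusted p = 0.0183), 2 were lower in USP and 1 in LSP; counts of higher members did not move.

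In single cells, leaving out each cell or SCE gave 38 to 40 detected members (40 with all), 2 in every cell, 27 to 33 with more spread between cells (29), 8 to 13 with at least 2 times the spread (9), 16 to 21 with a share of at least 0.5 (18), 1 to 3 with a share over 0.95 (1) and 2 with a share under 0.05 in every cell (2). The last count was 1 with quantile normalization, a mean for each group or moments, Snrpg being lost. Levels at the floor carry no order, which limits the 4 members never above it and those at the floor in a whole group.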
